A study of Mus musculus and Homo sapiens with 22 samples.

Results

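TAK901 is a small molecule known as an inhibitor of Aurora kinases, and its higher dose was compared here with its vehicle in the libraries labelled 4T1, the name of a mouse mammary carcinoma line. The tested libraries were the 2 of cells given 2 µM TAK901 for 24 h, set against the 2 of cells given DMSO that the labels number 3 and 4. These 4 of the 22 libraries of the series were chosen by their labels and by the naming of their count tables, and 2 libraries of cells given 1 µM TAK901 from the same naming set joined the fit. The cells had been plated 24 h before treatment, total RNA was sequenced, and nothing in the labels says whether the 2 libraries of a group came from separate cultures, so the p-values measure the spread between libraries, which may be technical.

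Aurora A, encoded by Aurka, drives centrosome maturation and spindle assembly. Aurora B, encoded by Aurkb, works with Incenp, survivin (Birc5) and borealin (Cdca8) in the chromosomal passenger complex, which corrects kinetochore attachments and directs cytokinesis. Cells in which Aurora B is inhibited commonly fail to divide and become polyploid, and a checkpoint through p53 and the CDK inhibitor p21 (Cdkn1a) can then hold them before S phase. An inhibitor acts on the kinase protein, so the mRNA of the kinases need not move.

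The depth of the groups was unequal. Gene counts summed to 6.00 and 3.75 M reads with 2 µM TAK901, 22.1 and 24.8 M with DMSO, and 15.9 and 27.1 M with 1 µM. A count of 3 reads, the upper limit that a count of 0 allows, stood at 0.50 and 0.801 CPM (counts per M reads) with 2 µM TAK901, against 0.136 and 0.121 CPM with DMSO, for counting error only. At equal depth, the chi-square per degree of freedom was 2.21 between the 2 libraries of 2 µM, 1.35 between those of 1 µM and 1.47 between those of DMSO. Replicate 2 of 2 µM lay nearer to both 1 µM libraries, at 1.87 and 1.86, than to its own replicate, while every pair of a 2 µM and a DMSO library stood at 6.08 to 6.93. The 2 µM replicates also differed with gene length: the median of replicate 1 minus replicate 2 was 0.09 on the log2 scale in the 2666 shortest of 10653 genes and -0.07 in the 2663 longest. Reads of mitochondrially encoded genes made up 2.85 and 2.86% with 2 µM TAK901, against 1.94 and 2.04% with DMSO.

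The markers did not all go with a mammary line from a female mouse, so the libraries are called by their label. Summed over Uty, Kdm5d, Eif2s3y and Ddx3y, all on the Y chromosome, there were 1638 and 1004 reads with 2 µM TAK901, against 5941 and 6681 with DMSO, which is a like share of the reads. Epithelial genes were abundant, with Cdh1 (E-cadherin) at 785 and 757 CPM with 2 µM TAK901, against 618 and 611 CPM with DMSO. Of the 22 listed mammary markers 10 had enough reads to be tested. Gata3 and Krt14 were among them, while Elf5 had 0 and 0 reads with 2 µM TAK901, against 1 and 1 with DMSO, and the milk genes Csn2 and Wap had none. Hnf4a, Cdx2 and Pdx1, transcription factors of liver, intestine and pancreas, were all present, with Hnf4a at 247 and 252 CPM with 2 µM TAK901, against 232 and 222 CPM with DMSO.

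In these libraries, the innate defence genes Ltf and C3 were among the 12 largest rises with 2 µM TAK901 in genes of at least 5 CPM. Lcn2, not among those 12, rose 2.52-fold, and lysosomal and antigen presentation genes were higher by smaller amounts. Genes of DNA replication were lower, and the largest falls included those of the secreted or matrix genes Prl2c2, Acan and Mmp3. Of 14505 genes tested with edgeR's quasi-likelihood test, 3377 (23.3%) passed at a Benjamini-Hochberg adjusted p under 0.05, with 1594 (11.0%) higher and 1783 (12.3%) lower than with DMSO. Most changes were small: the median was 1.34-fold among the genes that were higher and 1.29-fold among those that were lower. More than 2-fold, 180 genes (1.24%) were higher and 97 (0.669%) were lower. With 1 µM against the same DMSO libraries 3042 genes (21.0%) passed. DESeq2 called 2222 genes at 2 µM, and 2115 passed once every library had been thinned to the depth of the shallowest, so the count, though not the direction of the leading genes, moved with the tool and the depth.

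**Figure D1:**
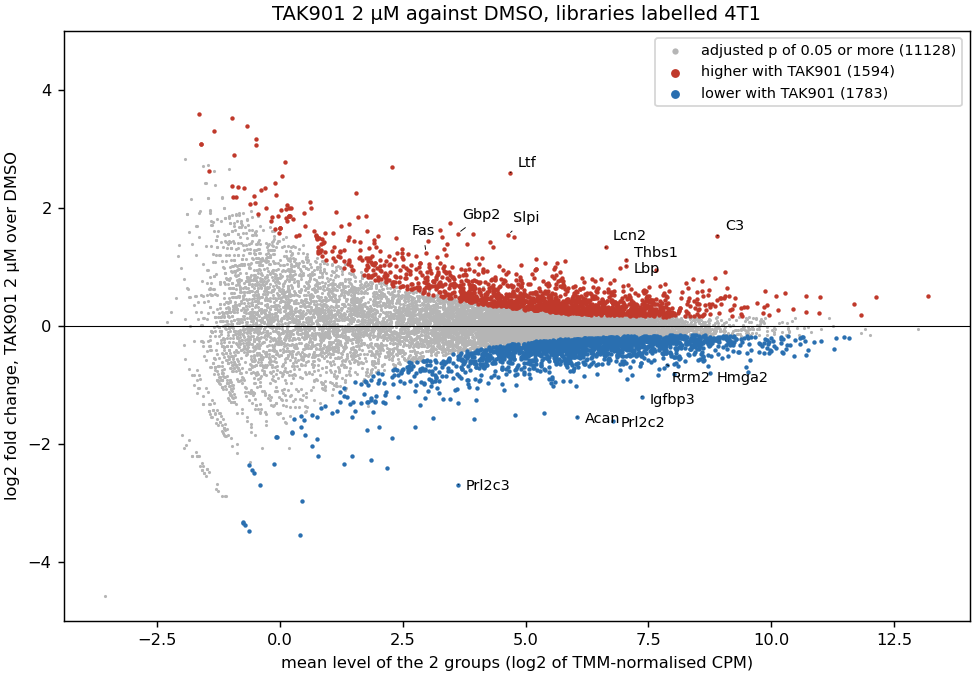
Log2 fold change of TAK901 2 µM over DMSO (y) against the mean level of the groups (x, log2 CPM) for 14505 genes, with the 1594 higher genes in red, the 1783 lower ones in blue and the rest in grey. Changes over 2-fold at high levels are few, with C3 and Ltf above and Prl2c2, Acan and Igfbp3 below the cloud. The 10 genes beyond the axis range are not drawn.

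Lactoferrin (Ltf, chromosome 9, 111019271 to 111042767 on GRCm38, plus strand), an iron-binding protein of milk and neutrophil granules, had the largest rise among genes of at least 5 CPM. It stood at 39.2 and 49.6 CPM with 2 µM TAK901, against 7.37 and 7.0 CPM with DMSO, a log2 fold change of 2.60 ± 0.13 (SE, edgeR adjusted p = 2.6e-14). The groups lay far apart, and the 1 µM libraries lay between them at 24.3 and 21.5 CPM. Complement C3 (chromosome 17, 57203970 to 57228136, minus strand), the central protein of the complement cascade, was at 696 and 728 CPM with 2 µM TAK901, against 247 and 245 CPM with DMSO. Its log2 fold change was 1.53 ± 0.06 (edgeR adjusted p = 1.3e-17), the smallest adjusted p among the genes named here. Lipocalin 2 (Lcn2), which binds bacterial siderophores, had 157 and 124 CPM with 2 µM TAK901, against 55.6 and 57.7 CPM with DMSO (log2 fold change 1.33 ± 0.08, edgeR adjusted p = 5.8e-13). In all 3 genes each 2 µM library exceeded each DMSO library. Many genes here and below were picked by their change in these same libraries, so such separation describes them and adds no support.

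Slpi, C1s1, Lbp and Cp, which encode secreted proteins, were higher as well, while the acute-phase gene Saa3, also secreted, had 3 and 3 reads with 2 µM TAK901, against 48 and 55 with DMSO. Saa3 passed as lower (edgeR adjusted p = 0.0127), but not without replicate 1 of 2 µM. Slpi, an inhibitor of neutrophil elastase, reached 37.7 and 36.4 CPM with 2 µM TAK901, against 13.6 and 11.9 CPM with DMSO. The complement protease C1s1 stood at 39.0 and 40.9 CPM with 2 µM TAK901, against 15.6 and 12.5 CPM with DMSO. The lipopolysaccharide-binding protein Lbp had 183 and 170 CPM with 2 µM TAK901, against 90.5 and 84.7 CPM with DMSO. Ceruloplasmin (Cp), a copper-carrying ferroxidase, had 683 and 707 CPM with 2 µM TAK901, against 374 and 362 CPM with DMSO. Log2 fold changes of these 4 genes were 1.54, 1.51, 1.02 and 0.91 in that order, each past the threshold. Their groups did not overlap, but they were picked among genes past the threshold, so this is no further support. Thbs1, the matrix glycoprotein thrombospondin 1, rose by 1.12 ± 0.06, Alpl (alkaline phosphatase) by 1.42 ± 0.13 and Vnn1, a pantetheinase, by 0.81 ± 0.06 on the log2 scale. The choline transporter-like gene Slc44a3 (1.76 ± 0.17), the coagulation factor gene F13a1 (1.63 ± 0.20), Lrrc75b (1.56), Agmo (1.51), Dio2 (1.49) and Pyroxd2 (1.45) completed the 12 largest rises together with Gbp2, and these stood between 6.12 and 22.97 CPM with 2 µM TAK901.

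**Figure D2:**
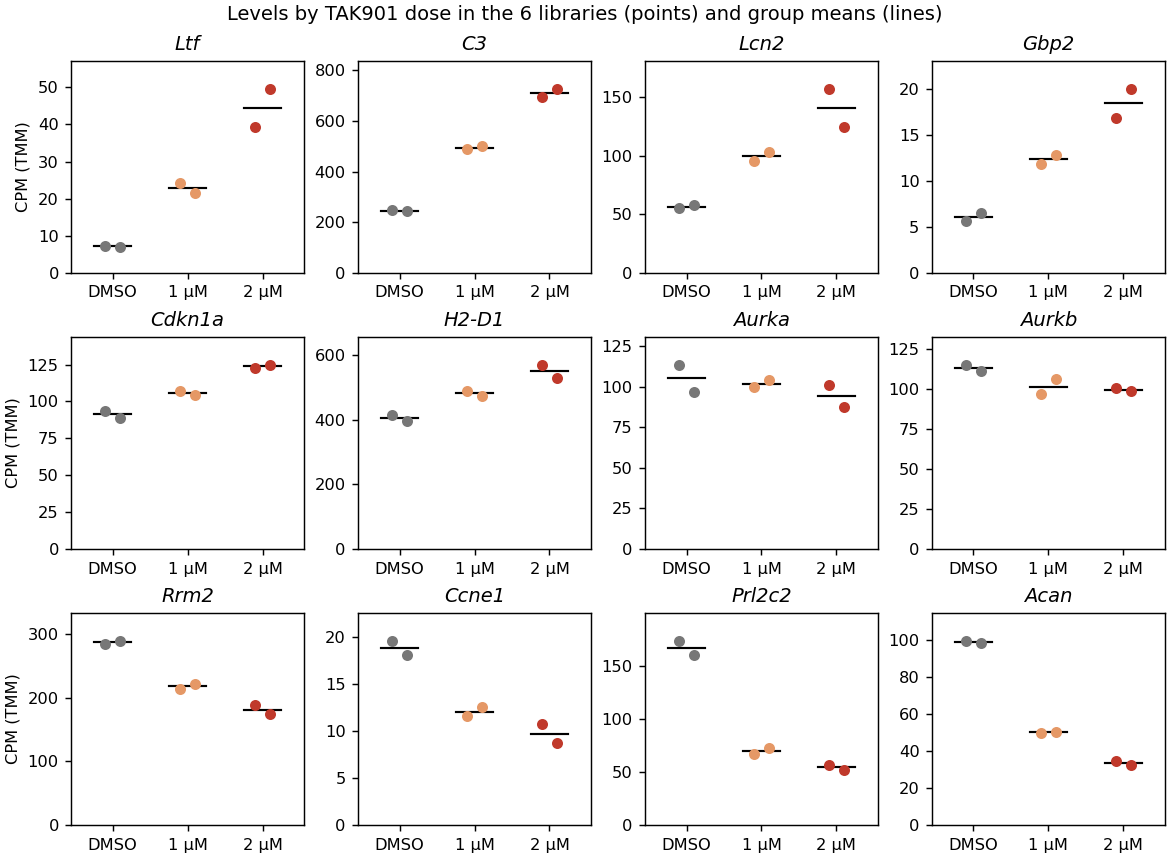
TMM-normalised CPM (y, from 0) of 12 genes in the libraries of DMSO, 1 µM and 2 µM TAK901 (x). Points are libraries and lines are group means. Ltf, C3, Lcn2, Gbp2, Cdkn1a and H2-D1 are higher with 2 µM than with DMSO without overlap. Rrm2, Ccne1, Prl2c2 and Acan are lower without overlap, as is Aurkb, which did not pass. The points of Aurka overlap.

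Prl2c3, Sh2d5 and Prl2c2 had the largest falls among genes of at least 5 CPM. Prl2c2 (chromosome 13, 12996125 to 13005383, minus strand), a proliferin of the prolactin family, had 56.7 and 51.5 CPM with 2 µM TAK901, against 173 and 160 CPM with DMSO (log2 fold change -1.61 ± 0.08, edgeR adjusted p = 9.7e-15). Its near-identical neighbour Prl2c3 had 4.14 and 2.11 CPM with 2 µM TAK901, against 21.7 and 21.6 CPM with DMSO, a change of -2.69 ± 0.21. Reads that fit both copies cannot be assigned to one, so the split between them is uncertain, but both were lower in each 2 µM library. Acan, the cartilage proteoglycan aggrecan, had 34.7 and 32.5 CPM with 2 µM TAK901, against 99.3 and 98.1 CPM with DMSO (-1.54 ± 0.08, edgeR adjusted p = 9.1e-14). The matrix metalloproteinase Mmp3 fell by 1.52 on the log2 scale. Nptx1, a neuronal pentraxin, fell by 1.47, and the guidance genes Sema3a and Plxna4 by 1.34 and 1.26. Sh2d5 (-1.71), Fam84a (-1.58), Pbp2 (-1.56), Col27a1 (-1.31) and Adam12 (-1.23) were the others of the 12 largest falls.

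Among genes of at least 100 CPM the largest falls included Igfbp3 and Hmga2. Igfbp3, which binds insulin-like growth factors, had 107 and 91.6 CPM with 2 µM TAK901, against 230.0 and 230.4 CPM with DMSO (-1.20 ± 0.07). The architectural chromatin protein gene Hmga2 had 309 and 317 CPM with 2 µM TAK901, against 528 and 560 CPM with DMSO (-0.80 ± 0.06), and Hmga1 fell by 0.82 ± 0.06. The mannose receptor gene Mrc1 changed by -0.84 ± 0.07. The mitochondrial chaperonin Hspd1 had 547 and 539 CPM with 2 µM TAK901, against 947 and 927 CPM with DMSO (-0.79 ± 0.06). Nop2, a methyltransferase of ribosomal RNA, fell by 0.75 ± 0.07. None of these groups overlapped, which the choice of genes past the threshold made likely.

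The Aurora kinases themselves did not pass the test. Aurka had 101 and 87.4 CPM with 2 µM TAK901, against 114 and 97.2 CPM with DMSO, and the groups overlapped (log2 fold change -0.14 ± 0.08, edgeR adjusted p = 0.214). Aurkb had 100.3 and 98.2 CPM with 2 µM TAK901, against 115 and 111 CPM with DMSO, a difference of -0.19 ± 0.07 that missed the threshold (edgeR adjusted p = 0.0543). Of 9 tested members of the Aurora list, 0 passed in either direction, with a median log2 fold change of -0.09, against 0.00 over all genes. The shares over all genes, 11.0% higher and 12.3% lower, are those against which the count of each list stands. Incenp (-0.09), Birc5 (-0.13) and Tpx2 (0.02), an activator of Aurora A, lay near 0. Without DMSO replicate 4 Aurka did pass, with no other list member doing so, and with no filter on low counts Aurkb did.

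Mitotic genes as a group stood near the median of all genes. Of 30 tested mitosis genes 2 were higher and 4 lower, with a median of -0.01. The 4 lower included Top2a, which untangles DNA before segregation, with 821 and 846 CPM with 2 µM TAK901, against 1021 and 1012 CPM with DMSO (-0.29 ± 0.06), and cyclin B1 (Ccnb1) with 199 and 199 CPM with 2 µM TAK901, against 239 and 239 CPM with DMSO (-0.27 ± 0.06). The spindle checkpoint gene Mad2l1 fell by 0.29 ± 0.06. Cenpe, a kinetochore motor, and Pttg1 (securin) were the 2 higher ones, by 0.23 and 0.24, and neither passed without DMSO replicate 4. Of 12 cytokinesis genes 3 were lower, Plk4, Ect2 and Kif23, but 1 was left without any 1 of 5 libraries (all except replicate 2 of 2 µM), and Plk4 alone passed in every alternative run.

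DNA replication genes were lower almost throughout. Of 42 tested, 36 fell and 0 rose, against 12.3% of all genes lower, with a median log2 fold change of -0.41, and 32 to 36 fell across the alternatives run. The ribonucleotide reductase subunit Rrm2, which supplies deoxynucleotides, had 188 and 175 CPM with 2 µM TAK901, against 285 and 289 CPM with DMSO (-0.66 ± 0.06, edgeR adjusted p = 4.2e-09). Pola1, the catalytic subunit of the polymerase that lays down primers, had 49.96 and 52.5 CPM with 2 µM TAK901, against 83.7 and 80.8 CPM with DMSO (-0.69 ± 0.08). Both groups were tight and separate in these genes. Thymidine kinase Tk1 fell by 0.60 and Uhrf1, which reads hemimethylated DNA at forks, by 0.55. The helicase subunit Mcm3 had 273 and 257 CPM with 2 µM TAK901, against 380 and 358 CPM with DMSO (-0.47 ± 0.06). The clamp gene Pcna had 261 and 234 CPM with 2 µM TAK901, against 315 and 314 CPM with DMSO (-0.34 ± 0.06). Rfc1, a clamp loader subunit, was among the 6 that did not pass, at -0.13.

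The promoters of replication genes often carry sites for E2F factors, which switch on S phase genes when released from Rb. A window of 300 bases, from 250 before to 50 after the RefSeq start (GRCm38.p6), was found for 33 of the 42 genes. The E2F-like letters TTTNGCGC, on either strand, occurred in 8 of these 33 windows, against 1.38% of 27025 windows of all genes. Of the 8 genes 7 were lower, a share like that of the whole list, where 36 of 42 were. The window of Pola1 (chrX:93632106-93632405, minus strand, 5′ to 3′ along the gene) is shown because this gene had the largest fall in the list, with the match in capitals.
Pola1: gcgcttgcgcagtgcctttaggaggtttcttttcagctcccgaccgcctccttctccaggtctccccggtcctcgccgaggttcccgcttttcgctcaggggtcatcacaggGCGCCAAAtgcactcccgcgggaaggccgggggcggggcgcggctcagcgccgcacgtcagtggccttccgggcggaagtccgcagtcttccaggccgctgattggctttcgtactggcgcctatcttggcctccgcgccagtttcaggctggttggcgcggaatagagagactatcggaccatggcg
A match describes letters in a window and does not show binding.

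**Figure D3:**
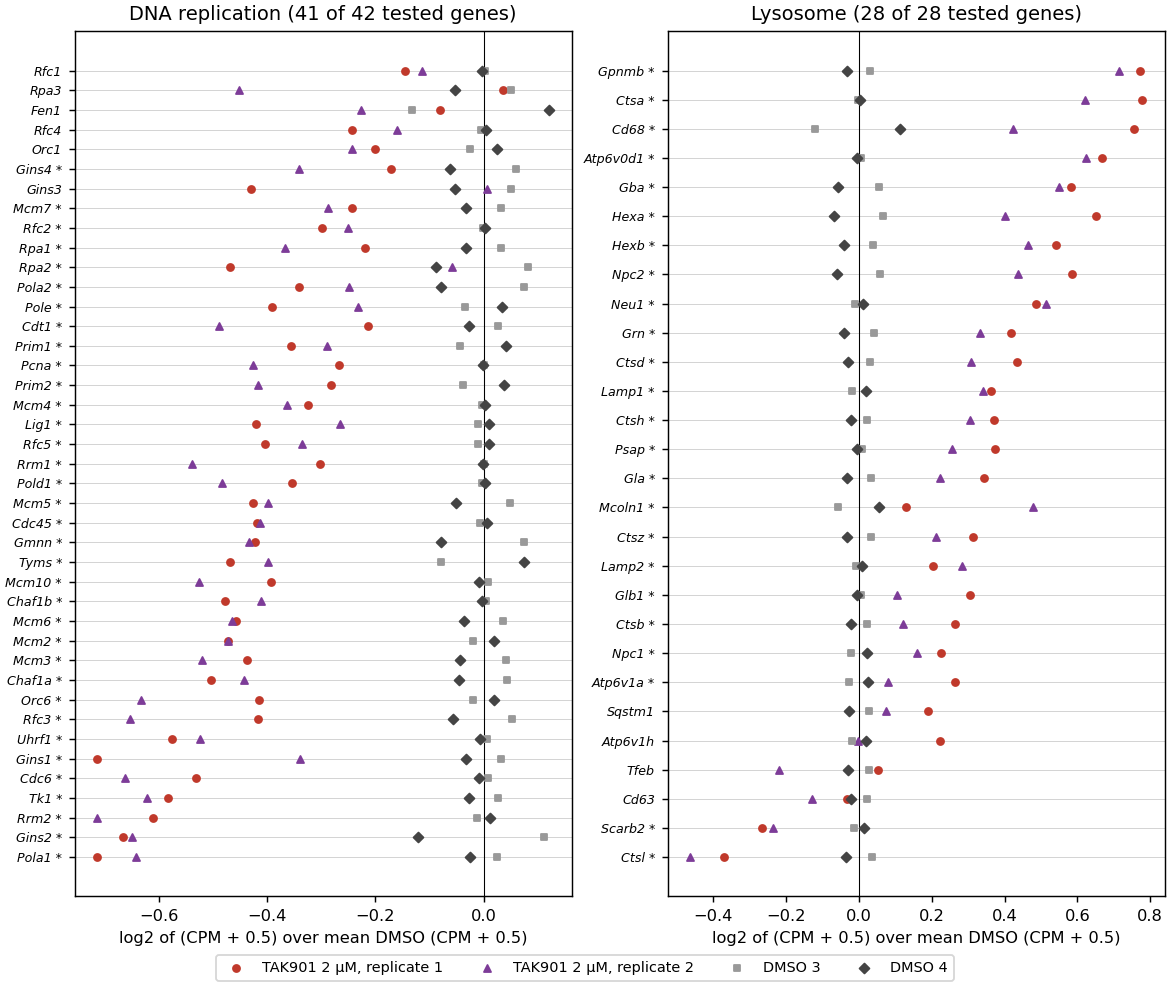
Tested DNA replication genes (left, 41 of 42 drawn) and lysosome genes (right, 28) with the log2 of its CPM + 0.5 over the mean DMSO CPM + 0.5 (x) in the 2 libraries of 2 µM TAK901 and the 2 of DMSO; an asterisk marks genes that passed. Nearly all replication genes lie left of the DMSO points and most lysosome genes right of them in both 2 µM libraries, with exceptions such as Rpa3, Gins3, Ctsl and Tfeb.

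Regulators of entry into S phase changed in both directions, where 11.0% of all genes were higher and 12.3% lower. Cdkn1a (p21) had 123 and 125 CPM with 2 µM TAK901, against 93.3 and 89.1 CPM with DMSO (0.44 ± 0.07, edgeR adjusted p = 9.7e-06). Cyclin D1 (Ccnd1) had 814 and 869 CPM with 2 µM TAK901, against 1100 and 1069 CPM with DMSO (-0.37 ± 0.06), and cyclin E1 (Ccne1) had 10.8 and 8.71 CPM with 2 µM TAK901, against 19.6 and 18.1 CPM with DMSO (-0.92 ± 0.16). The groups were separate in all 3 genes. Of 21 CDK inhibitor and G1 genes 4 were higher, Cdkn1a, Cdkn1b (p27), Rb1 and Rbl2, and 10 were lower, among them Ccnd2, Ccne2, Cdk2, Cdk6, E2f1 and E2f2. Without replicate 1 of 2 µM 2 were higher and 6 lower, and without replicate 2 of 2 µM 2 were higher. Cdkn2a and Cdkn2b, the INK4 inhibitors, were at -0.02 and -0.01 and did not pass. Myc had 146 and 131 CPM with 2 µM TAK901, against 173 and 171 CPM with DMSO (-0.30 ± 0.07).

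Genes known as p53 targets were more often higher than lower. Of 30 tested, 14 rose and 2 fell, against 11.0% and 12.3% of all genes, with a median of 0.22, and 7 rose without replicate 1 of 2 µM. Btg2, an antiproliferative gene, had 46.2 and 45.2 CPM with 2 µM TAK901, against 25 and 24.6 CPM with DMSO (0.88 ± 0.10). Fas, the death receptor, had 13.6 and 8.19 CPM with 2 µM TAK901, against 5.11 and 4.56 CPM with DMSO (1.24 ± 0.21), and the 2 µM replicates differed in it. Trp53inp1 and the BH3-only gene Pmaip1 (Noxa) rose by 0.63 and 0.64. Mdm2, the ubiquitin ligase of p53, had 161 and 150 CPM with 2 µM TAK901, against 132 and 137 CPM with DMSO (0.22 ± 0.06, edgeR adjusted p = 0.0114), and it missed the threshold without replicate 1 of 2 µM or DMSO replicate 3. Aen and Rps27l were the 2 that fell, by 0.31 and 0.25, and neither passed without replicate 2 of 2 µM. In the BCL2 family and caspase list, 7 of 23 were higher and 4 lower. Bmf, a BH3-only gene, rose by 0.86 ± 0.10 and Birc2 by 0.43 ± 0.10, while Bok fell by 0.55 ± 0.09 and the anti-apoptotic Mcl1 by 0.28 ± 0.06.

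The series looked for compounds to combine with immunotherapy, and the chemokines that draw T and NK cells were scarcely expressed. Cxcl9 had 0 reads in all 6 libraries, Cxcl11 had 3 and 1 reads with 2 µM TAK901, against 8 and 7 with DMSO, and neither was tested. Ccl5 had 1.16 and 1.58 CPM with 2 µM TAK901, against 1.47 and 1.42 CPM with DMSO, and Cxcl10 had 0.331 and 0.792 CPM with 2 µM TAK901, against 0.967 and 0.691 CPM with DMSO. In reads, Ccl5 had 7 and 6 with 2 µM TAK901, against 32 and 35 with DMSO, and Cxcl10 had 2 and 3, against 21 and 17. Both genes missed the threshold (edgeR adjusted p = 0.891 and 0.557). With so few reads in the 2 µM libraries, a change of moderate size was not detectable at this depth. Cxcl16, the membrane-bound ligand of CXCR6, was the 1 of 4 tested members that passed. It had 61.7 and 59.2 CPM with 2 µM TAK901, against 36.2 and 32.8 CPM with DMSO (0.82 ± 0.09, edgeR adjusted p = 8.5e-08). Cd274, which encodes PD-L1, had 3.47 and 3.70 CPM with 2 µM TAK901, against 3.82 and 3.86 CPM with DMSO (-0.11 ± 0.29), and did not pass.

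Of 16 tested chemokines and cytokines that act on myeloid cells, 6 were higher, against 11.0% of all genes, and 2 were lower, a share near the 12.3% of all genes. Cxcl3 and Cxcl1, which attract neutrophils, rose by 0.80 ± 0.07 and 0.61 ± 0.06, with Cxcl1 at 208 and 204 CPM with 2 µM TAK901, against 128 and 141 CPM with DMSO. Csf1, the growth factor of macrophages, had 496 and 528 CPM with 2 µM TAK901, against 327 and 340 CPM with DMSO (0.62 ± 0.06). The groups did not overlap in either. The lower ones were Il33 (-0.33) and Cxcl5 (-0.18), of which Il33 did not pass without replicate 1 of 2 µM and Cxcl5 not without replicate 2 of 2 µM, DMSO 3 or DMSO 4.

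Antigen presentation genes of MHC class I were higher where they changed. Of 23 tested, 13 rose and 0 fell, against 11.0% and 12.3% of all genes, with a median of 0.39, and 7 rose and 1 fell without replicate 1 of 2 µM. The heavy chain gene H2-D1 had 570 and 530 CPM with 2 µM TAK901, against 416 and 396 CPM with DMSO (0.44 ± 0.06). Its partner B2m had 441 and 384 CPM with 2 µM TAK901, against 290 and 312 CPM with DMSO (0.46 ± 0.06). Tapasin (Tapbp), which loads peptides, rose by 0.56 ± 0.06, the immunoproteasome subunit Psmb9 by 1.18 ± 0.26 and the nonclassical H2-T23 by 0.97 ± 0.16. In H2-D1, B2m and Tapbp every 2 µM library was above every DMSO library. The general chaperones Calr (-0.03), Canx (-0.12) and Pdia3 (-0.06) did not pass, nor did the transporter Tap1 (0.31). Class I genes resemble each other, so reads that fit several are not counted for any one and single members are less certain than the group. Of 3 tested class II genes Cd74 and H2-DMa rose, at 9.26 and 10.03 CPM and 7.61 and 7.92 CPM with 2 µM TAK901, against 5.48 and 5.04 CPM and 4.74 and 5.29 CPM with DMSO. Of these H2-DMa did not pass without any 1 of the 4 compared libraries.

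Interferon-stimulated genes moved unevenly. Of 38 tested, 10 rose and 1 fell, against 11.0% and 12.3% of all genes, with a median of 0.27, and 6 rose without DMSO replicate 4, nearer to the share of all genes. Gbp2, a guanylate-binding protein that acts against intracellular pathogens, had 16.9 and 20.1 CPM with 2 µM TAK901, against 5.66 and 6.55 CPM with DMSO (1.57 ± 0.17, edgeR adjusted p = 4.2e-08). Samd9l (0.49) and the signal transducer Stat2 (0.60) rose, while the classical targets Isg15 (-0.16), Ifit1 (-0.39) and Mx1 (-0.04) were at no more than 3.17 CPM in any 2 µM library and did not pass. Oasl1 fell by 0.71 ± 0.15. Of 12 tested checkpoint ligands 2 were higher and 2 lower, beside 11.0% and 12.3% of all genes, and 8 did not pass. Lgals9 (galectin 9) rose by 0.47 ± 0.06 and Vsir (VISTA) by 1.19 ± 0.30, while Cd276 (-0.23) and Nectin3 (-0.42) fell. Vsir, Cd276 and Nectin3 did not pass without replicate 1 of 2 µM, and Nectin3 not without DMSO 3.

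Targets of NF-kB, the factor held inactive by IkB proteins, rose in part, where 11.0% of all genes were higher and 12.3% lower. Of 21 tested, 11 were higher and 0 lower, with a median of 0.29, and 9 to 14 were higher in the alternatives run. Nfkbia, which encodes IkB alpha, had 133 and 136 CPM with 2 µM TAK901, against 87.9 and 90.1 CPM with DMSO (0.59 ± 0.07, edgeR adjusted p = 1.1e-07). Nfkbie rose by 0.79 ± 0.15 and Tnip3 by 0.57 ± 0.07, and Tnfaip3 (0.07) and Icam1 (-0.05) did not pass. In the list of STAT3 and its targets 5 of 18 were higher, among them Lcn2, Cebpd (0.70 ± 0.09) and Il6st (0.45 ± 0.06), 3 without DMSO replicate 3, and 3 were lower, among them the feedback inhibitor Socs3 (-0.38 ± 0.10), which did not pass without replicate 1 of 2 µM or DMSO 3. Stat3 itself had 72.6 and 86.9 CPM with 2 µM TAK901, against 66.0 and 67.2 CPM with DMSO (0.24 ± 0.08, edgeR adjusted p = 0.0262), and passed neither without replicate 2 of 2 µM nor without DMSO 3 or DMSO 4.

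The promoter windows of these immune genes were read in the same way. The interferon-response-like letters GAAANNGAA occurred in 17 of 28 windows of interferon-stimulated genes and in 5 of 20 of MHC class I genes, against 8.56% of all windows. Of the 17 genes 4 were higher, beside 10 of 38 in the whole list. Of the 5 genes 4 were higher, beside 13 of 23 in the whole list. The kappaB-like letters GGGANTTTC occurred in 2 of 16 windows of NF-kB targets, those of Cxcl1 and Nfkbia, against 1.12% of all. Windows of Gbp2 (chr3:142620413-142620712, plus strand) and Nfkbia (chr12:55492598-55492897, minus strand) are shown with matches in capitals. Gbp2 is the interferon-stimulated gene among the 12 largest rises in genes of at least 5 CPM. Nfkbia is the NF-kB target that encodes the inhibitor of NF-kB itself. The window of Nfkbia also holds a GAAANNGAA match, left in lower case.
Gbp2: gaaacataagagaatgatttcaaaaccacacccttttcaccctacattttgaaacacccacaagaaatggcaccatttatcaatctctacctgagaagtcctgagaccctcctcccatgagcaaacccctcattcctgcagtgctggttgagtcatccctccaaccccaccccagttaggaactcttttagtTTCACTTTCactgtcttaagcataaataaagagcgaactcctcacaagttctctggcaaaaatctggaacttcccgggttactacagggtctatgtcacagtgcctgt
Nfkbia: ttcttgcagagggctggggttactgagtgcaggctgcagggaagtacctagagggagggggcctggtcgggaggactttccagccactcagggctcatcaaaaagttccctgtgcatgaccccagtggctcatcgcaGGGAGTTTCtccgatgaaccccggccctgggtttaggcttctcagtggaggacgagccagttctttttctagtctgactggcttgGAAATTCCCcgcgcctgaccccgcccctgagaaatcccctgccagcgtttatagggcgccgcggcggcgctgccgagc
Both genes were higher in both 2 µM libraries.

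Lysosomal genes were mostly higher. Of 28 tested, 22 rose and 2 fell, against 11.0% of all genes higher, with a median of 0.31, and 16 to 23 rose in the alternatives run. Cathepsin A (Ctsa) had 299 and 268 CPM with 2 µM TAK901, against 174 and 175 CPM with DMSO (0.71 ± 0.06, edgeR adjusted p = 1.4e-09). The proton pump subunit Atp6v0d1 had 103 and 99.8 CPM with 2 µM TAK901, against 64.8 and 64.3 CPM with DMSO (0.65 ± 0.07), and the melanosomal and phagosomal glycoprotein Gpnmb rose by 0.76 ± 0.08. The groups were well separated in these 3. The protease Ctsl had 409 and 383 CPM with 2 µM TAK901, against 542 and 516 CPM with DMSO (-0.41 ± 0.06), and Scarb2 changed by -0.25, a fall that did not pass without replicate 1 of 2 µM or DMSO 4. Tfeb, the factor that binds lysosomal promoters, was at -0.05 and did not pass. The letters GTCACGTG, which TFEB and related factors are known to bind, occurred in 6 of 22 windows of the list, against 2.29% of all. All 6 genes rose (Atp6v0d1, Ctsd, Gla, Glb1, Lamp1 and Mcoln1), beside 22 of 28 in the whole list. Cathepsin D (Ctsd) had 590.3 and 542 CPM with 2 µM TAK901, against 447 and 428 CPM with DMSO (0.38 ± 0.06), and its window (chr7:142387778-142388077, minus strand) is shown because it holds 2 matches, in capitals.
Ctsd: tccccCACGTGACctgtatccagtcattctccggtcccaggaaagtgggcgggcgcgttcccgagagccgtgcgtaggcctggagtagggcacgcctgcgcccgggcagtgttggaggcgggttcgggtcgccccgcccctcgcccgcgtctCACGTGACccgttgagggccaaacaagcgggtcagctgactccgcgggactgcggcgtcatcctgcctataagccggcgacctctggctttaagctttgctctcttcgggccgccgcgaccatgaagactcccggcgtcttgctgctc
Matches on the other strand read CACGTGAC.

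**Figure D4:**
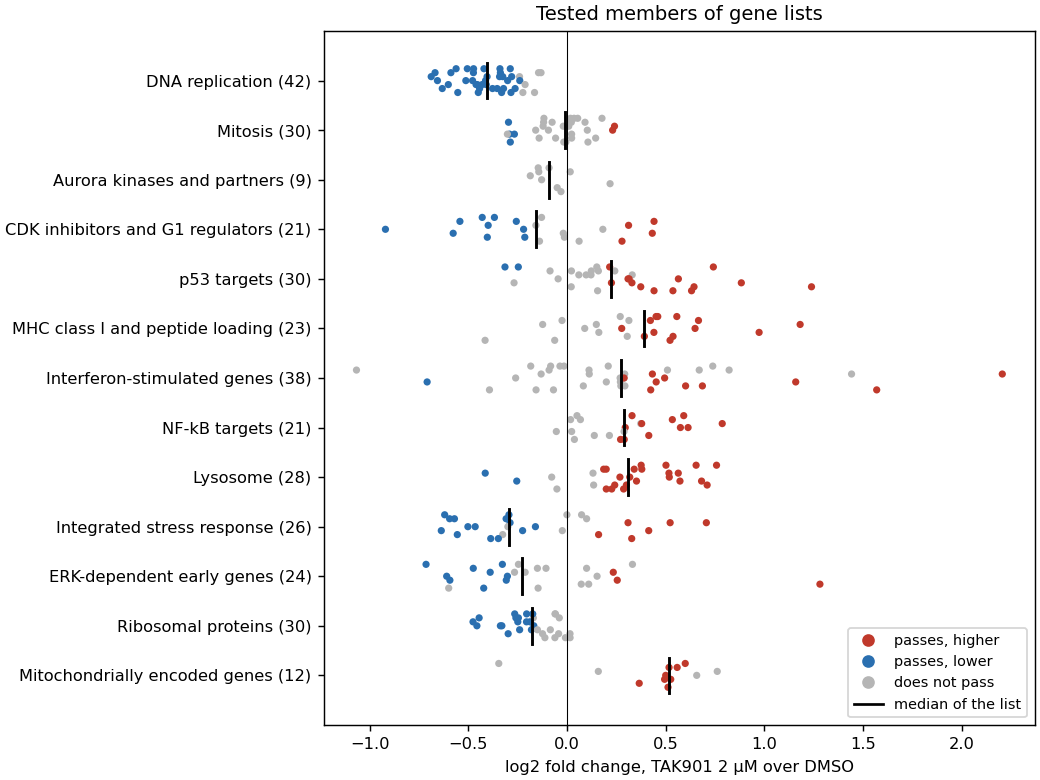
Log2 fold change of TAK901 2 µM over DMSO (x) for the tested members of 13 gene lists (y, number tested in brackets), with members that passed in red (higher) or blue (lower), the others in grey and the median as a black bar. The DNA replication list sits left of 0, the Aurora and mitosis lists around 0, and the lysosome, MHC class I and mitochondrially encoded lists mostly right of 0.

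For each list of this paragraph, the shares over all genes were 11.0% higher and 12.3% lower. Genes of the integrated stress response fell more often than they rose. This response, in which ATF4 raises amino acid synthesis and transport, had 14 of 26 tested genes lower and 6 higher, with a median of -0.29, and 2 higher without replicate 1 of 2 µM. Psat1 and Phgdh of serine synthesis had 213 and 209 CPM and 312 and 295 CPM with 2 µM TAK901, against 325 and 323 CPM and 475 and 419 CPM with DMSO (-0.62 ± 0.06 and -0.56 ± 0.06). Asparagine synthetase (Asns) fell by 0.57 ± 0.07. Stc2 (0.71 ± 0.11), Vldlr (0.41 ± 0.07) and Atf3 (0.52 ± 0.13) went the other way, Atf3 not passing without replicate 1 of 2 µM, and Ddit3 was at 0.00. Of 21 chaperones of the unfolded protein response 6 were lower, 3 without either DMSO library, and 2 were higher, 1 without replicate 1 of 2 µM. Of 14 heat shock genes 2 were higher and 3 lower, 5 without replicate 1 of 2 µM, with Hspa1b (0.72 ± 0.08) and Hspb1 (0.67 ± 0.15) higher and Hspe1 (-0.43 ± 0.07) and Hsph1 (-0.24 ± 0.06) lower besides Hspd1; Hspa1b has a near-identical copy, so its level is uncertain.

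NRF2 targets of antioxidant defence were more often higher than lower where they changed. Over all genes 11.0% were higher and 12.3% lower, and the median of the list was 0.09. Of 16 tested, 7 were higher and 1 lower, and 4 were higher without replicate 1 of 2 µM. G6pdx, which feeds NADPH production, had 170 and 151 CPM with 2 µM TAK901, against 83.8 and 80.5 CPM with DMSO (0.98 ± 0.07), Gstm1, a glutathione transferase, rose by 0.96 ± 0.07 and Gclc, which limits glutathione synthesis, by 0.65 ± 0.06. Txnrd1 fell by 0.38 ± 0.06, and Gclm (0.01) and Hmox1 (0.02) did not pass. Idh1, another source of NADPH, rose by 0.80 ± 0.06 outside the list. Mitochondrially encoded genes were higher in 8 of 12 tested, with a median of 0.51. Among them mt-Co1, a subunit of cytochrome oxidase, rose by 0.52 ± 0.07, while of 30 nuclear genes of oxidative phosphorylation 1 was higher and 4 were lower, shares no larger than or near those of all genes (11.0% and 12.3%), with 1 lower without DMSO 3 and 2 lower without replicate 2 of 2 µM. Ribosomal protein genes were lower in 17 of 30 tested (median -0.18), 11 without replicate 2 of 2 µM and 6 without DMSO replicate 3. Many of them have processed pseudogenes that share reads.

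Early targets of growth signalling through ERK were mostly lower where they changed. Among 24 of them 9 fell and 3 rose, with a median of -0.23. The EGF receptor ligand Areg had 52.3 and 43.0 CPM with 2 µM TAK901, against 76.4 and 82.6 CPM with DMSO (-0.71 ± 0.09), and the ETS factor Etv4 fell by 0.61 ± 0.08 and the phosphatase Dusp7 by 0.59 ± 0.09. Of the 3 higher genes Phlda1 (0.25) passed also without replicate 1 of 2 µM and Ier3 and Fos did not, and Dusp6 (0.15) did not pass. Of 20 YAP targets 3 were higher and 3 lower, shares near the 11.0% and 12.3% of all genes, and 1 was higher without replicate 1 of 2 µM or DMSO 4. The connective tissue growth factor gene Ccn2 fell by 0.37 ± 0.07 and Ccn1 rose by 0.27 ± 0.07. In the epithelial-mesenchymal list 7 of 22 were higher, among them Cdh1 (0.33 ± 0.06), Cldn4 (0.49 ± 0.08) and S100a4 (0.47 ± 0.06), and 4 without DMSO 3, DMSO 4 or replicate 1 of 1 µM. The 4 lower ones included Vim (-0.20) and Sparc (-0.21), and 0 were lower without DMSO 3 and 2 without DMSO 4 or either 2 µM library. The simple-epithelium keratins Krt8 and Krt18 fell by 0.39 ± 0.06 and 0.38 ± 0.06.

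Markers of other cells were measured beside these lists, again with 11.0% of all genes higher and 12.3% lower. Summed per library without TMM factors, 17 haematopoietic markers were at 224 and 206 CPM with 2 µM TAK901, against 145 and 139 CPM with DMSO. Nearly all of these reads were from Cd14, a receptor for bacterial lipopolysaccharide, with 217 and 199 CPM with 2 µM TAK901, against 144 and 135 CPM with DMSO (0.59 ± 0.06). The pan-leukocyte gene Ptprc had 3 and 0 reads with 2 µM TAK901, against 7 and 10 with DMSO, and it was near 0 in every library. Summed fibroblast markers were at 168 and 162 CPM with 2 µM TAK901, against 167 and 157 CPM with DMSO, and endothelial markers at 88.6 and 87.3 CPM with 2 µM TAK901, against 96.4 and 93.5 CPM with DMSO. Most of the endothelial sum came from Flt1, at 61.1 and 60.5 CPM (TMM) with 2 µM TAK901, against 73.1 and 70.5 CPM with DMSO. Only 6 of the 12 endothelial markers had enough reads to be tested. Of 11 tested endoderm factors 4 rose, among them Cdx2 (0.42 ± 0.09), Pdx1 (0.30 ± 0.09) and Onecut2 (0.27 ± 0.07), and 2 did so without DMSO 3 or without replicate 2 of 2 µM. Hnf4a missed the threshold (0.13 ± 0.06, edgeR adjusted p = 0.0968). Of 16 gut and liver products 4 were lower and 1 higher, with a median of 0.00. Apob (-0.91), Cdh17 (-0.69), Lgals2 (-0.68) and Krt20 (-0.61) fell, and Vil1 (0.29) rose but did not pass without replicate 1 of 2 µM or DMSO 4. In bulk RNA fewer cells of a type and less RNA per cell cannot be told apart.

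Few genes differed between the doses. Against 1 µM, 77 genes (0.531%) passed at 2 µM, 44 (0.303%) higher and 33 (0.228%) lower, and 1800 had an unadjusted p under 0.05. Replicate 2 of 2 µM, which lay nearer to the 1 µM libraries than to its own replicate, is placed in its group by its label alone, and whether that label is right was not tested, so the comparison of doses holds only as far as it is. Among genes of at least 5 CPM the largest rises were Rsph3a (1.06), Selenbp1 (0.98), Ltf (0.94), Unc93b1 (0.87), Aldoc (0.71) and Slc44a3 (0.67), and the largest falls Prl2c3 (-1.12), Nptx1 (-0.73), Mmp3 (-0.61), Mmp9 (-0.58), Acan (-0.56) and Ccbe1 (-0.53). Selenbp1, a selenium-binding protein, had 58.6 and 54.9 CPM with 2 µM, against 30.3 and 28.0 CPM with 1 µM (0.98, edgeR adjusted p = 9.4e-05). Its DMSO values were 32.6 and 22.04 CPM, so the 1 µM libraries lay within the range of DMSO. Mmp9, a gelatinase, had 36.9 and 37.5 CPM with 2 µM, against 56.6 and 54.5 CPM with 1 µM (edgeR adjusted p = 0.00105), with DMSO at 73.8 and 67.6 CPM. C3 (0.52), Lcn2 (0.52) and Slpi (0.55) were also higher at 2 µM than at 1 µM. Of the 42 replication genes 2 were lower at 2 µM than at 1 µM, and of the 29 hypoxia and glycolysis genes 4 were higher, among them Ndrg1 (0.48, edgeR adjusted p = 0.000801). Against DMSO the hypoxia and glycolysis list had 2 higher and 5 lower at 2 µM (median -0.01), beside 11.0% and 12.3% of all genes. With 1 µM it had 1 higher and 18 lower (median -0.19). Of the 14505 genes tested, 1398 were higher and 1644 lower with 1 µM, 21.0% for both directions together. The count between doses hung on single libraries, with 25 genes without replicate 1 of 2 µM, 310 without replicate 2 of 2 µM, 35 without replicate 1 of 1 µM and 19 without its replicate 2, and with 11 at equal depth. Ltf, Nptx1 and Selenbp1 passed in every alternative run.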

How the data were processed

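Total RNA libraries were made with the NEBNext Ultra kit and sequenced on an Illumina HiSeq, per the labels' protocols. The authors deposited whole-number read counts per gene, 1 table of 38924 Ensembl IDs a library. FastQC 0.11.3, Bowtie, TopHat, HTSeq, DESeq2 and mm10 are named in the submitters' processing notes. Which annotation and strand setting the counter used is not given in the sources used here. Overlapping and antisense genes are therefore uncertain. HTSeq summary lines were removed, and 37607 IDs matched GENCODE M21 (GRCm38); reads in the 1317 others made up 0.285%.

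The 6 libraries were fitted with edgeR 4.0.16 (R 4.3.3): filterByExpr, TMM, glmQLFit and glmQLFTest, two-sided, Benjamini-Hochberg adjusted over 14505 genes, threshold 0.05. SE was taken as the absolute log2 fold change divided by the root of F. CPM are TMM-normalised, and depth sets their precision. DMSO 1 and 2 were left out by rule. The script was tested on simulated data. Alternatives were other scalings and filters, DESeq2 1.42.0, the 4 compared libraries alone, thinning to 3746588 reads, a replicate block and leaving out each library. No 2 libraries were duplicates.

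Members and 40 lists were chosen with earlier results of these data known, and 3 lists after these values were seen. Named were a fixed set of genes, the 12 largest rises and falls at 5 CPM or more, 8 each way at 100 CPM or more, up to 3 each way by p in a list, and 6 each way between doses at 5 CPM or more. Other list members were named after their values were seen. Symbols without a proper name were not named, and some genes that the rule names are not reported here.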

Additional observations from a re-analysis of the deposited data

How the results depend on the processing

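The 3377 genes changed at 2 µM against DMSO became 2222 with DESeq2, 961 higher and 1261 lower, and 2115 at equal depth; leaving out 1 library gave 2507 to 3114. With total-count scaling 1859 were higher and 1508 lower, and with no filter on low counts 1342 and 2092. The 277 genes over 2-fold became 143 with the stricter filter, 147 with DESeq2 and 167 at equal depth, and 217 to 273 without 1 library. The 77 genes between doses became 196 with no filter, 49 with DESeq2, 11 at equal depth and 19 to 310 without 1 library. The correlation of deviations by replicate number was 0.02. It cannot decide whether replicate numbers pair the libraries, since counting noise weighs on the 2 shallow ones. With the 4 libraries of the 2 doses alone, a replicate block gave 102 genes between doses, against 99 without the block. Of 185 named genes that passed against DMSO, 127 passed in every alternative run and 0 changed sign. Among those that did not pass, log2 fold changes took the other sign in 4 genes. Tpx2 was at -0.0133 with no filter. Cdkn2a was at 0.0127 with total-count scaling, 0.0206 at equal depth and -0.0839 to 0.0385 without 1 library. Cdkn2b was at 0.0182 with total-count scaling and -0.0675 to 0.0320 without 1 library, and Ccl5 at -0.3249 to 0.1186 without 1 library. The cause of these moves was not tested, and the 2 shallow libraries limit what low genes can show.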

Other observations

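Ribosome biogenesis genes, which make ribosomal RNA and assemble the subunits, were lower throughout with 2 µM TAK901. The list was drawn up after the values had been seen, so its count is a description: 28 of 28 genes fell, against 12.3% of all genes (median log2 fold change -0.50, against 0.00 over all genes), and 24 to 28 did so in the alternatives run. Polr1b, a subunit of RNA polymerase I, had 27.3 and 35.4 CPM with 2 µM TAK901, against 59.2 and 60.1 CPM with DMSO (-0.96 ± 0.10 SE). Rrp12, a ribosome assembly factor, fell by 0.95 ± 0.09. Nucleolin (Ncl) had 1142 and 1172 CPM with 2 µM TAK901, against 1678 and 1618 CPM with DMSO (-0.51 ± 0.06). Between doses, 5 of the 28 were lower at 2 µM than at 1 µM, against 0.228% of all genes. This count uses the same 2 µM libraries and is a description as well.

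Serine and one-carbon genes, a list also drawn up after the values had been seen and sharing members with the integrated stress response list, fell in 13 of 14, against 12.3% of all genes (median -0.48). Mthfd2, a mitochondrial folate enzyme, had 54.3 and 60.5 CPM with 2 µM TAK901, against 79.5 and 77.5 CPM with DMSO (-0.47 ± 0.08). Of 16 tested complement and acute-phase genes, chosen in the same way, 9 were higher and 1, Saa3, was lower (median 0.97), against 11.0% and 12.3% of all genes. Of the 9, 7 were also higher at 2 µM than at 1 µM, against 0.303% of all genes. Both counts use the 2 µM libraries whose values were known when the list was made, so they are a description and no test. Besides those named before, the complement protease gene C1ra rose by 0.77 ± 0.10.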
